A study of Mus musculus with 21 samples.

Results

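Transcripts of 9 genes of citrate metabolism were followed in mouse prostate: Cs, Aco1, Idh1, Idh2, Idh3a, Ogdh, Fh1, Mdh2 and Slc25a1. The genes were chosen by name, as enzymes of the citrate cycle and the carrier that moves citrate, and every array probe whose annotated symbol is one of the names was taken. That gave 13 probes of 45259 on the array, for 9 genes of 19057 with a symbol of their own. Aco1 and Idh1 encode the cytosolic forms of aconitase and of NADP-dependent isocitrate dehydrogenase, so not every one of the 9 is a mitochondrial enzyme.

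The samples were prostates of FVB/N males aged 8 to 12 weeks, all heterozygous for a luciferase reporter gene under a thymidine kinase promoter with androgen response elements. They lie in 6 groups on 21 Illumina bead arrays. The genistein experiment crossed castration with genistein, a soy isoflavone that binds estrogen receptors, in a layout of 4 groups with 3 arrays apiece (castrated or intact, vehicle or genistein). Daily genistein injections under the skin held 300 µg for each mouse, or 10 µg/g body weight, and went on for 5 days; in castrated males injections began 4 days after surgery. The vehicle was mineral oil with 2% dimethylsulfoxide. In the estradiol experiment all males were intact, with 5 arrays from males given vehicle (mineral oil with 0.5% ethanol) and 4 from males given 17β-estradiol for 4 days, in daily doses of 0.25 µg for each mouse (10 µg/kg). Tissue was taken 24 hours after the last dose. The labels name neither the lobes dissected nor whether RNA was pooled across animals, so p-values reflect only how these samples spread, and that spread may be partly technical. The title of the series presents genistein as a tissue-specific modulator of the androgen receptor, the question behind the comparison of males with and without testes.

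In most tissues citrate is made in mitochondria by citrate synthase and is oxidised onward through the cycle: it is turned into isocitrate, isocitrate dehydrogenases make 2-oxoglutarate, and the 2-oxoglutarate dehydrogenase complex, fumarase and malate dehydrogenase carry the carbon back to oxaloacetate. Prostate epithelium is known for secreting citrate. Citrate that leaves the mitochondrion through the carrier Slc25a1 can also be cleaved in the cytosol to feed fatty acid and sterol synthesis, and the cytosolic Idh1 supplies NADPH for the same syntheses.

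RefSeq promoter windows of build GRCm38.p6 matched 8 of the 9 genes, all but Idh3a, in 14 windows. The 250 bases that end just before the start site are printed for Idh1, which has a pair of annotated starts, Idh2 and Slc25a1, the genes with a called change that have an entry. They read 5′ to 3′ in the direction of the gene. Capitals mark matches to motifs searched on both strands. AGAACA, which reads TGTTCT on the opposite strand, is the hexamer of androgen receptor elements. AGGTCA, with TGACCT as its complement, is that of estrogen receptor elements. The GC box was searched as GGGCGG and in reverse as CCGCCC, and the CCAAT box by its name and in reverse as ATTGG. No match of a motif overlapped one of another.
Idh1, chr1:65179143-65179392, minus strand: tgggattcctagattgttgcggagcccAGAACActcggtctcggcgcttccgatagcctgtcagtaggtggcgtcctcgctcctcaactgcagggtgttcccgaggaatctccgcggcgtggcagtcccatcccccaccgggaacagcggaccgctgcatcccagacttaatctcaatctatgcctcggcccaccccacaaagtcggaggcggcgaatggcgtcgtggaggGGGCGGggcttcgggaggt
Idh1, chr1:65186480-65186729, minus strand: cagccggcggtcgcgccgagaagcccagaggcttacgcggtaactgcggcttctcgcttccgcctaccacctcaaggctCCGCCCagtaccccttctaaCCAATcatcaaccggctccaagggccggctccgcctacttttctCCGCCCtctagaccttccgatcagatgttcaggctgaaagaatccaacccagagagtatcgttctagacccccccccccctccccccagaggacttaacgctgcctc
Idh2, chr7:80115351-80115600, minus strand: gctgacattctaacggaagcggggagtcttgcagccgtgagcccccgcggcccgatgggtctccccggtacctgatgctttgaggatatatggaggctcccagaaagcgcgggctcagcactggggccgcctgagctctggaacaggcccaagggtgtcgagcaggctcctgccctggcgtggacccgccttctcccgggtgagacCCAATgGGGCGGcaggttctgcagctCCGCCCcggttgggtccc
Slc25a1, chr16:17928220-17928469, minus strand: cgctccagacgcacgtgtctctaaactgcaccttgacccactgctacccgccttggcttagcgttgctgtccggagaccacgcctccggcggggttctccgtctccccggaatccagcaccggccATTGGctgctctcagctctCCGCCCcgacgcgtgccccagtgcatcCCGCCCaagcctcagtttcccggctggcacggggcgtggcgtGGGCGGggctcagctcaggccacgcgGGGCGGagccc
One Idh1 window held a match to AGAACA, 217 bases from its start site, and neither the other Idh1 window nor those of Idh2 and Slc25a1 held one. Over all 32851 windows of the same length, 16.1% held that hexamer on either strand. AGGTCA was in none of the 4 windows, against 14.0% of all windows. The GC box was in each of the 4, with 4 matches for Slc25a1, against 32.7% of all windows, and the CCAAT box was in 3 of the 4, against 33.8%. Genes without a called change held these motifs too. The Aco1 window had the androgen receptor hexamer as TGTTCT, 188 bases from its start site. The Fh1 window had the estrogen receptor hexamer as TGACCT, 182 bases from its start site. GC boxes were also found for Cs, Aco1, Ogdh, Fh1 and Mdh2, and CCAAT boxes for Cs, Ogdh and Fh1. These matches describe letters only and say nothing on binding.

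Between 42.3% and 47.0% of probes were detected on an array, and the probe that stands for each of the 9 genes was detected on every array. Aco1 had raw intensities from 163 to 316 in the genistein experiment, where the median probe of an array read between 99.4 and 109. The secretory markers of prostate epithelium were high in intact males and all 5 measured fell with castration, their summed signal going from between 116300 and 125640 to between 11732 and 20635. Markers of other tissues were also present: all 12 skeletal muscle markers were measured, and Ucp1, the uncoupling protein of brown fat, read between 11.04 and 14.02 on the log2 scale in the genistein experiment. Castrated males all lie on chip 1 and intact males of the genistein experiment on chip 2, so the effects of castration and of chip cannot be told apart, whereas each genistein comparison lies within a chip. In such bulk tissue, fewer cells of a type and less RNA per cell cannot be told apart either.

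**Figure D1:**
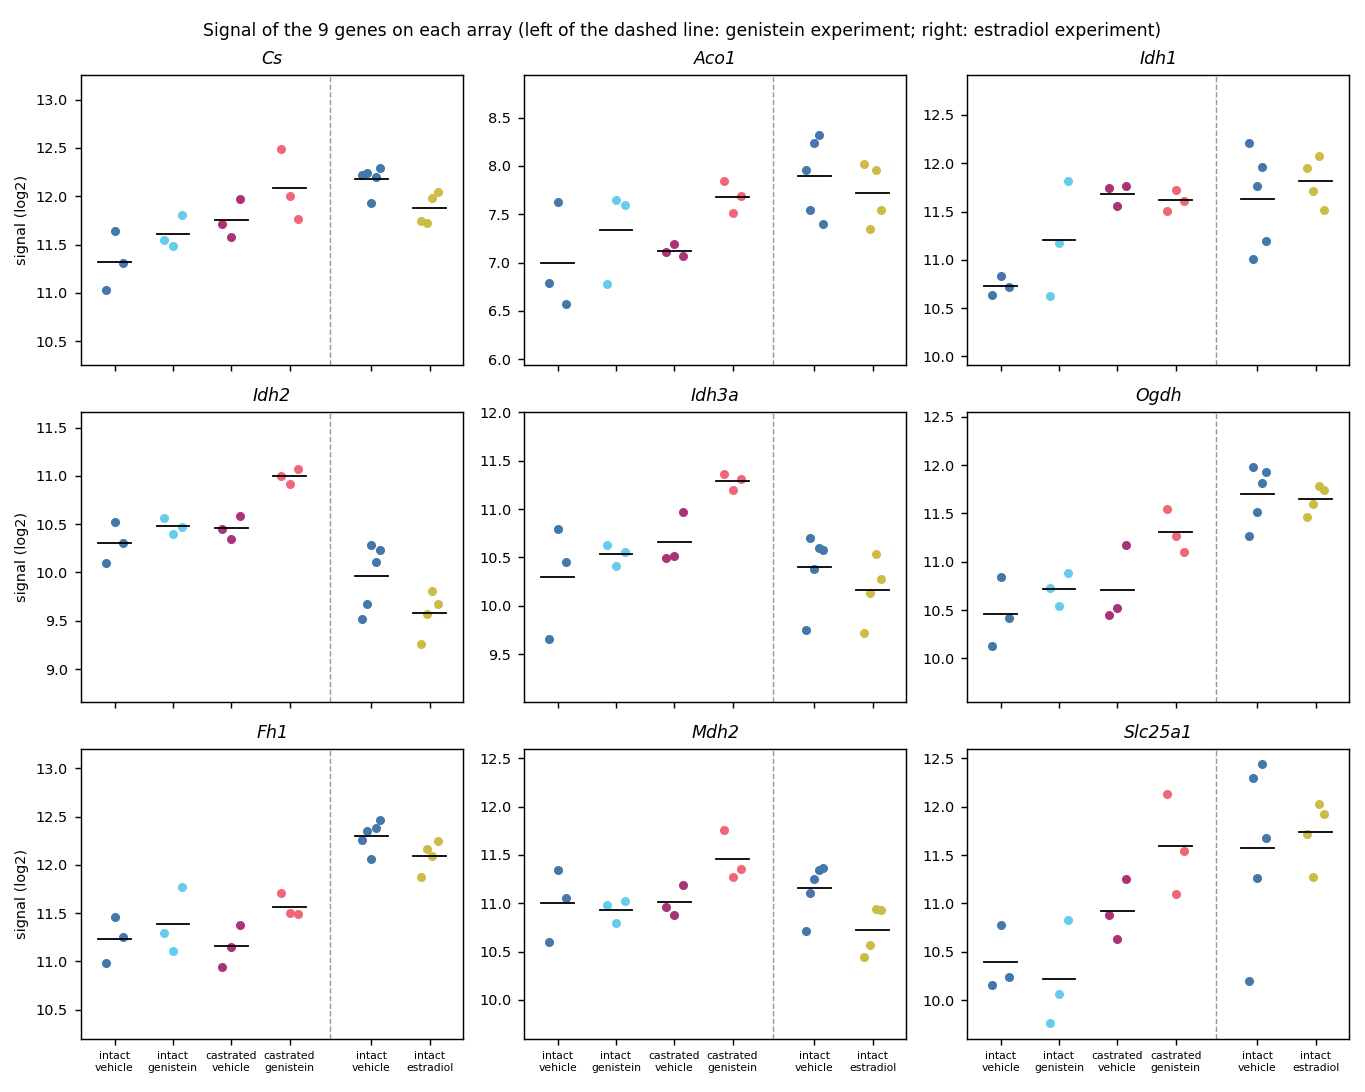
Log2 signal of the 9 genes (vertical axis) on each of 21 arrays, by group (horizontal axis); each point is 1 array and each line a group mean. The castrated genistein group has the highest mean of the 4 groups of its experiment for 8 of the 9 genes, and Idh1, at 10.63 to 10.84, is low on the intact vehicle arrays of that experiment. The experiments were normalized separately.

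Without genistein, 1 of the 9 transcripts was called higher in castrated than in intact males, that of Idh1, in a comparison that lies across different chips. Cytosolic isocitrate dehydrogenase makes NADPH while it turns isocitrate into 2-oxoglutarate. Its log2 signal was 10.63, 10.84 and 10.72 on the 3 intact vehicle arrays and 11.74, 11.56 and 11.76 on the 3 castrated vehicle arrays. Every castrated array was above every intact one. The change was 0.96 (SE 0.23, adjusted p = 0.0122, limma with Benjamini-Hochberg adjustment over all genes), a 1.94-fold difference. Among all 15406 genes tested, 21.2% changed in this comparison and 11.1% rose, so 1 call among 9 is near the background.

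The other 8 did not pass the threshold of 0.05. For Slc25a1, the mitochondrial citrate carrier, the log2 change was 0.53 (SE 0.31) at an adjusted p of 0.252. Citrate synthase, Cs, which makes citrate from acetyl-CoA and oxaloacetate, read 11.03, 11.64 and 11.31 in intact vehicle males and 11.71, 11.58 and 11.97 in castrated vehicle males. These ranges overlap, and the log2 change was 0.43 (SE 0.20, adjusted p = 0.160). Idh3a, the catalytic subunit of the NAD-dependent mitochondrial enzyme, had 0.36, and Ogdh, the first enzyme of the 2-oxoglutarate dehydrogenase complex, 0.25. Idh2, the mitochondrial NADP-dependent enzyme, had 0.15 and Aco1, which doubles as the iron regulatory protein, 0.13. Values close to 0 were found for Mdh2, mitochondrial malate dehydrogenase, at 0.01, and for Fh1, fumarase, at -0.08. The median of the 9 was 0.25, against 0.04 over all genes. It was 0.05 without intact vehicle array 1, 0.15 without castrated vehicle array 3, 0.38 without castrated vehicle array 1 and 0.44 without intact vehicle array 2. Groups did not overlap for 1 of the 9, against 39.5% of all genes.

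In genistein-treated males, castrated animals had higher levels of Slc25a1, Idh3a and Idh2 than intact animals. Slc25a1 read 9.76, 10.06 and 10.82 on the intact genistein arrays and 12.13, 11.10 and 11.55 on the castrated genistein arrays. No castrated array was below an intact one, and array 1 was the highest of the castrated group and the lowest of the intact group. The log2 change was 1.37 (SE 0.31, adjusted p = 0.00866), a 2.59-fold difference. A second Slc25a1 probe rose by 1.17 (adjusted p = 0.00993 when each probe was tested).

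Idh2 read 10.57, 10.40 and 10.47 in intact genistein males and 11.00, 10.92 and 11.07 in castrated genistein males. Both groups were tight, and the log2 change of 0.52 (SE 0.13, adjusted p = 0.0137) is a 1.43-fold difference. Idh3a read 10.63, 10.42 and 10.56 in intact and 11.36, 11.20 and 11.32 in castrated genistein males, with no overlap. Its log2 change was 0.76 (SE 0.24, adjusted p = 0.0401), a 1.69-fold difference, and its dimmer second probe had 0.72 (adjusted p = 0.0890). With 3 of 9 called, all higher, the background of this comparison is 22.1% of all genes called and 11.2% called higher.

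Ogdh (0.59, SE 0.22, adjusted p = 0.0792) and Mdh2 (0.53, SE 0.19, adjusted p = 0.0676) did not pass, though their castrated and intact arrays did not overlap. Cs had a log2 change of 0.48 (adjusted p = 0.119), Idh1 0.41 (adjusted p = 0.230), Aco1 0.34 and Fh1 0.17; a dimmer probe of Fh1 had 0.51 (adjusted p = 0.0548). The intact genistein arrays were widely spread for Idh1, at 10.62, 11.18 and 11.82, and its change was 0.72 (adjusted p = 0.0121) without the last of them and 0.12 (adjusted p = 0.700) without the first. Groups did not overlap for 5 of the 9, against 38.4% of all genes, and the median was 0.52, against 0.04 over all genes. This comparison and that in vehicle-treated males use the same pair of chips, and a test of the difference between them is the interaction given further on.

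**Figure D2:**
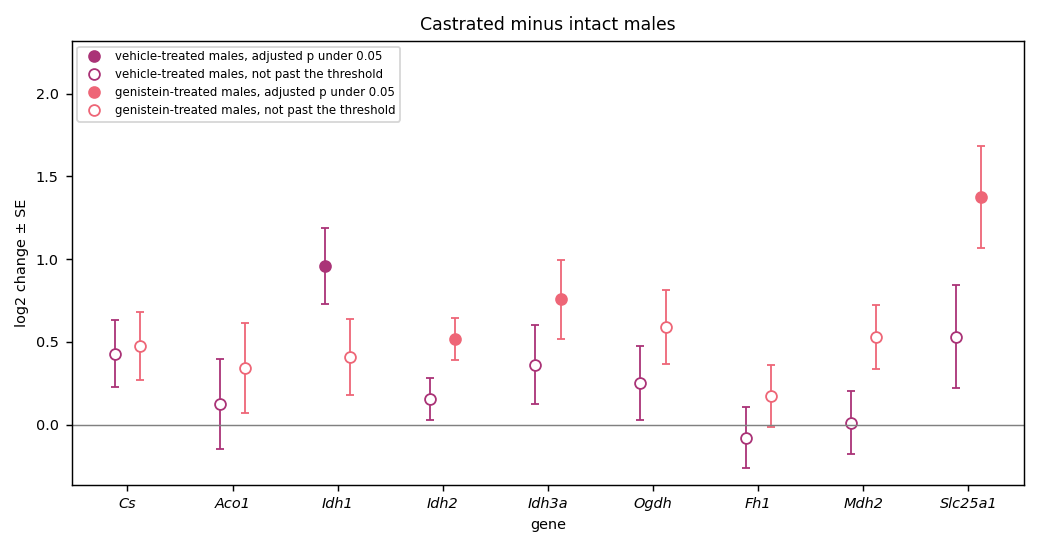
Log2 change, castrated minus intact, of each of the 9 genes (vertical axis, ± SE from the limma fit) in vehicle-treated and genistein-treated males; filled points passed an adjusted p of 0.05. Idh1 is filled in vehicle-treated males, and Slc25a1, Idh3a and Idh2 in genistein-treated males.

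The calls in genistein-treated males rest on few arrays. Castrated genistein arrays 1 and 3 stood apart in seminal vesicle transcripts, with summed signals of 1372 and 412 against 21483 on array 2. Array 2 was itself below every array of the other groups of the experiment. Their sums were 68528 to 72584 in intact genistein, 55382 to 82426 in intact vehicle and 25804 to 65979 in castrated vehicle males. Without those arrays, with 1 array standing for the group and assumed to vary like the others, 0 of the 9 were called, while 839 of all genes were, and the changes were 0.88 for Slc25a1 (adjusted p = 0.234), 0.67 for Idh3a (adjusted p = 0.329) and 0.44 for Idh2 (adjusted p = 0.227). Idh3a missed the threshold whichever of the 6 arrays was left out, with adjusted p from 0.0666 to 0.115, and also with no filter on dim probes (0.0700) and in the authors' processed values (0.0673). Idh2 missed it without castrated genistein array 3 alone (0.0503) and without intact genistein array 2 alone (0.0523), where 1 of the 9 was called. Under median scaling in place of quantile normalization Slc25a1 alone was called, with adjusted p of 0.0558 for Idh2 and 0.0657 for Idh3a.

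Signals of other tissues moved with the same groups. Ucp1 read 11.04, 12.76 and 11.88 in intact vehicle males, 11.71, 12.54 and 12.73 in intact genistein males, 12.97, 13.01 and 13.65 in castrated vehicle males and 14.02, 13.74 and 13.70 in castrated genistein males. It rose with castration by 1.32 (SE 0.38, adjusted p = 0.0290) under vehicle and by 1.49 (SE 0.38, adjusted p = 0.0159) under genistein. Of 9 adipocyte markers listed, Ucp1 among them, 7 were measured. Under vehicle 1 rose, Ucp1 itself, and under genistein 4 rose, again with Ucp1 among them. The summed signal, which includes Ucp1, was 7960 to 15365 in intact vehicle and 5765 to 14217 in intact genistein males. It was 16049 to 21713 in castrated vehicle and 22160 to 30108 in castrated genistein males. Skeletal muscle markers summed to 115910 to 215409, 165842 to 241202, 138830 to 156749 and 153323 to 222321 in the same order of groups, with 1 of 12 lower and none higher in either castration comparison. Macrophage markers rose, 8 of 9 under vehicle and 6 of 9 under genistein, as did 4 of 4 and 3 of 4 lymphocyte markers and 2 of 4 and 1 of 4 endothelial markers. Smooth muscle markers fell, 3 of 9 under vehicle (median of the list -0.21) and 7 of 9 under genistein (median -0.71). Of 6 luminal epithelium markers measured, 1 rose and 2 fell under vehicle and 1 fell under genistein. Of 4 urothelium markers 1 rose and 1 fell in each comparison. Of 5 seminal vesicle markers measured (6 listed), 0 were called under vehicle (median of the list -1.60) and 3 fell under genistein (median -4.79). Beside these counts, 21.2% of all genes were called under vehicle and 22.1% under genistein, with 11.1% and 11.2% called higher. The part of these tissues in the results for the 9 genes was not tested.

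Single arrays differed in the same measures. Intact vehicle array 1 had the lowest mean of the 12 skeletal muscle markers in the genistein experiment, 12.79 on the log2 scale, and the lowest Ucp1. On that array Cs (11.03), Idh2 (10.10), Idh3a (9.66), Ogdh (10.13) and Mdh2 (10.60) were the lowest of all 12 arrays. Castrated genistein array 1 had the highest Ucp1 of the 12 arrays, with a skeletal muscle mean of 13.77. It also had the highest Cs (12.49), Aco1 (7.845), Idh3a (11.36), Ogdh (11.55), Mdh2 (11.76) and Slc25a1 (12.13). Intact genistein array 1 had the highest skeletal muscle mean of the 12 arrays, 14.01, and the highest level of the muscle creatine kinase Ckm, 13.86. Its mean over the 9 genes, 10.32, was the lowest of its group, but the genes differed. Within the group this array was lowest for Aco1 (6.78), Idh1 (10.62) and Slc25a1 (9.76) and highest for Idh2 (10.57) and Idh3a (10.63). Cs, Ogdh, Fh1 and Mdh2 lay in between.

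**Figure D3:**
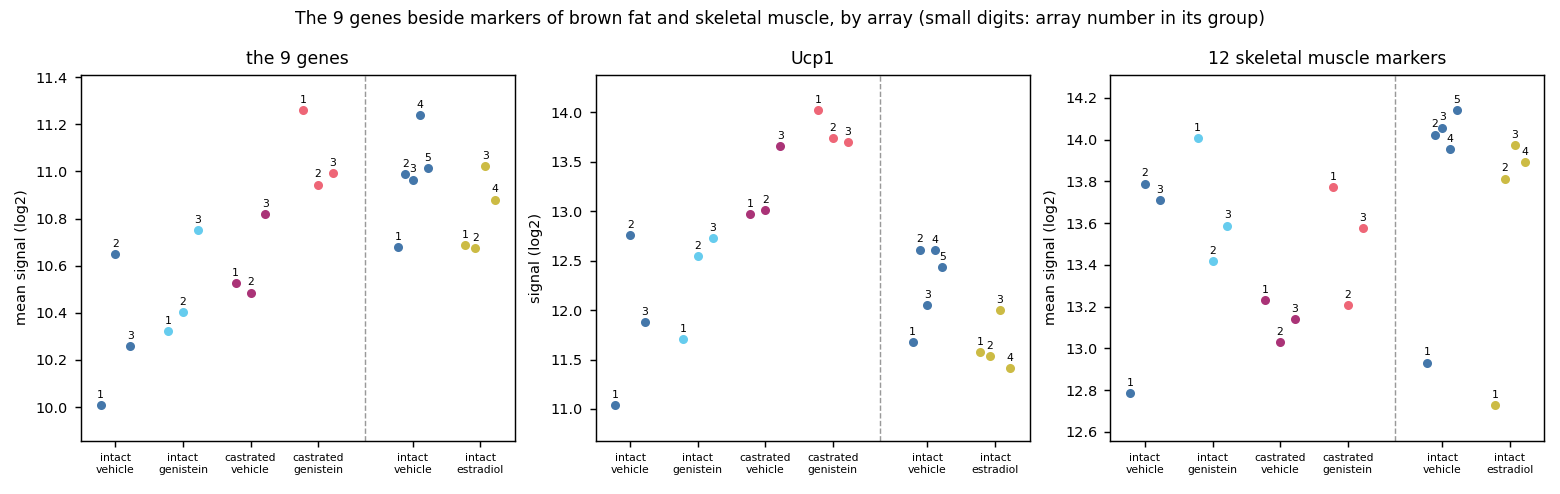
Mean log2 signal of the 9 genes, log2 signal of Ucp1 and mean log2 signal of 12 skeletal muscle markers (vertical axes) on each array, by group (horizontal axis); each point is 1 array with its number in the group. The mean of the 9 genes runs from 10.01 on intact vehicle array 1 to 11.26 on castrated genistein array 1 in the genistein experiment, and Ucp1 has its lowest and highest values on the same arrays.

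The order of the group means differed among the genes. For Idh2, means rose from 10.31 ± 0.21 (SD, n = 3) in intact vehicle males through 10.46 ± 0.12 in castrated vehicle and 10.48 ± 0.08 in intact genistein males to 11.00 ± 0.07 in castrated genistein males. The lower 3 groups overlapped and the castrated genistein group stood above every other array. Idh3a had the castrated genistein group apart in the same way, at 11.29 ± 0.08, above castrated vehicle (10.66 ± 0.27), intact genistein (10.53 ± 0.11) and intact vehicle males (10.30 ± 0.58), which overlapped. For Idh1 the castrated vehicle (11.69 ± 0.11) and castrated genistein groups (11.61 ± 0.11) overlapped at the top, and intact genistein males (11.21 ± 0.60) overlapped both with them and with intact vehicle males (10.73 ± 0.10). For Slc25a1, neighbours in the order intact genistein (10.22 ± 0.55), intact vehicle (10.39 ± 0.34), castrated vehicle (10.92 ± 0.32) and castrated genistein (11.59 ± 0.52) each overlapped. Neighbouring groups likewise overlapped for Cs, from 11.61 ± 0.17 in intact genistein through 11.75 ± 0.20 in castrated vehicle to 12.09 ± 0.37 in castrated genistein males, with intact vehicle males below them. The same held for Aco1 (up to 7.68) and Fh1 (11.16 to 11.57), each highest in castrated genistein males. For Ogdh (10.46 to 11.30) castrated genistein males overlapped castrated vehicle males but not intact genistein males. For Mdh2 castrated genistein males (11.46 ± 0.26) did not overlap castrated vehicle males (11.01 ± 0.16) but did overlap intact vehicle males (11.00 ± 0.38).

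Other genes around the cycle were taken in 5 lists. In the castration comparison under vehicle, which lies across different chips, 21.2% of all genes were called and 11.1% were called higher. Under vehicle, castration changed 0 of 10 measured further cycle enzymes (13 listed), the nearest being Dlst, the succinyltransferase of the 2-oxoglutarate dehydrogenase complex (0.52, adjusted p = 0.132). Among 11 measured genes of pyruvate entry (14 listed), 2 rose: Pdk4, the kinase that switches off pyruvate dehydrogenase, by 1.69 (SE 0.40, adjusted p = 0.0109), and Pdha1, a subunit of pyruvate dehydrogenase itself, by 0.62 (SE 0.16, adjusted p = 0.0149). Among 6 measured genes of citrate use and transport (9 listed), Ank, a membrane protein tied to the export of ATP, pyrophosphate and citrate, fell by 0.90 (SE 0.19, adjusted p = 0.00706). It read 11.24, 10.98 and 11.05 in intact and 10.03, 10.23 and 10.31 in castrated vehicle males, with no overlap. Acly, which cleaves exported citrate to acetyl-CoA, had 0.64 (adjusted p = 0.116), and the cytosolic malate dehydrogenase Mdh1 had -0.16 (adjusted p = 0.365). No gene of aspartate and glutamate supply (7 measured of 11 listed; Glud1 0.22, adjusted p = 0.265) or mitochondrial content (13 measured of 16 listed; Ppargc1a 0.69, adjusted p = 0.117) passed. List medians were 0.09 for further cycle enzymes, 0.29 for pyruvate entry, 0.13 for citrate use, 0.05 for aspartate and glutamate supply and 0.01 for mitochondrial content.

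In the castration comparison under genistein, 22.1% of all genes were called and 11.2% were called higher. Of the 10 further cycle enzymes, 4 were higher in castrated males and none lower. These were Idh3b (0.83, adjusted p = 0.0212), a partner subunit of Idh3a, Dlst (0.76, adjusted p = 0.0332), and Suclg1 and Suclg2 (0.48 and 0.43), subunits of succinyl-CoA ligase. Mdh1 had 0.04 (adjusted p = 0.839). In pyruvate entry 7 of 11 rose, led by Pdk4 (1.74, adjusted p = 0.00911) and pyruvate carboxylase, Pcx, which makes oxaloacetate (1.67, SE 0.25, adjusted p = 0.000894). Pcx read 6.57, 7.03 and 7.59 in intact and 9.08, 8.28 and 8.83 in castrated genistein males. The pyruvate dehydrogenase subunits Pdhb (0.93), Dlat (0.64) and Pdha1 (0.57) followed. In citrate use 3 of 6 rose, the acetyl-CoA carboxylase Acacb by 1.44, the acetyl-CoA synthetase Acss2 by 1.27 and Acly by 1.08 (adjusted p = 0.0150), and Ank fell by 0.82 (adjusted p = 0.0113). The glutamate transporter Slc1a1 fell by 1.08 (adjusted p = 0.00233), the only call of 7 in its list. Of mitochondrial content genes 2 of 13 rose, the coactivator Ppargc1a by 1.02 and the chaperone Hspa9 by 0.53. Medians were 0.49, 0.51, 0.47, 0.08 and 0.22 in the order of lists given for vehicle. Ucp1 and the adipocyte sums that include it, both given above, moved with these groups too.

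**Figure D4:**
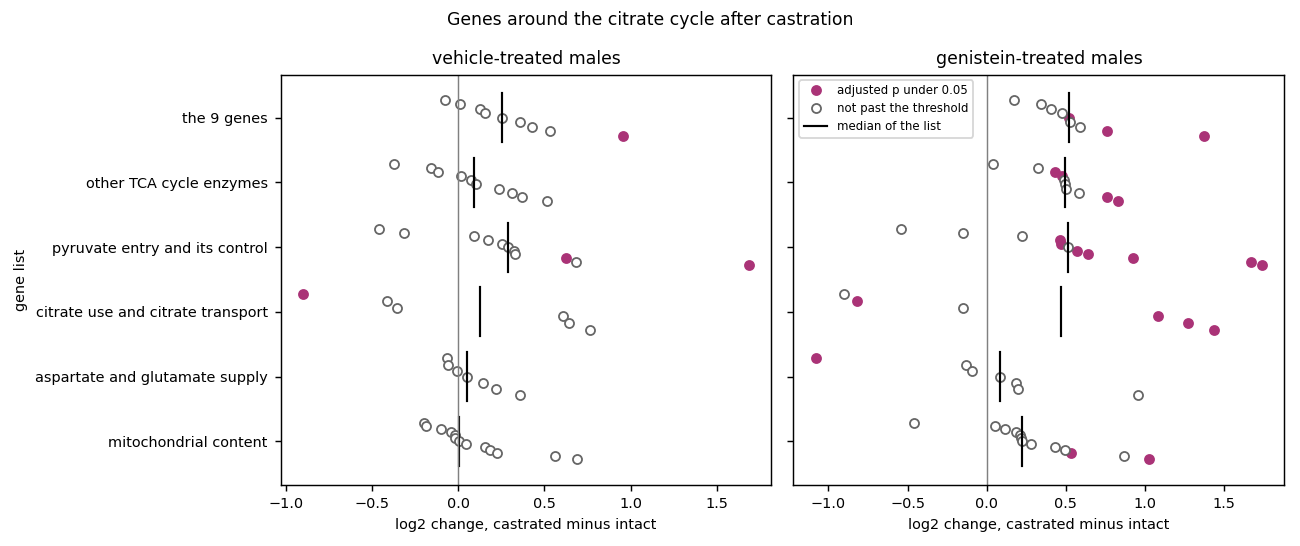
Log2 change, castrated minus intact (horizontal axis), of each measured gene in 6 lists (vertical axis), in vehicle-treated and in genistein-treated males; each point is a gene, filled where its adjusted p was under 0.05, and the vertical bars are list medians. The median of the 9 genes is 0.25 under vehicle and 0.52 under genistein.

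With genistein, none of the 9 passed the threshold in castrated males. In this comparison limma called 0 of 15406 genes (0% of all genes), with 9.47% of genes at an unadjusted p under 0.05, and the comparison lies within 1 chip. Without castrated genistein array 2, 144 genes were called, 28 higher and 116 lower, with 0 of the 9 among them. At that unadjusted level stood 5 of the 9, all higher with genistein: Idh2, Idh3a, Ogdh, Mdh2 and Fh1. Idh2 had the lowest adjusted p, 0.240, with a log2 change of 0.53 (SE 0.13), from 10.45, 10.35 and 10.59 under vehicle to 11.00, 10.92 and 11.07 under genistein. The other changes were 0.67 for Slc25a1, 0.63 for Idh3a, 0.59 for Ogdh, 0.56 for Aco1, 0.45 for Mdh2, 0.41 for Fh1, 0.33 for Cs and -0.07 for Idh1. Groups did not overlap for Aco1, Idh2, Idh3a, Fh1 and Mdh2, 5 of the 9, against 17.5% of all genes. The median of the 9 was 0.53, against a median of -0.0044 over all genes, and 0.34 without castrated genistein arrays 1 and 3.

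Beside these values, Ucp1 differed by 0.61 on the log2 scale (adjusted p = 0.659) with castrated genistein arrays above castrated vehicle arrays. The adipocyte sums, which include Ucp1, did not overlap. Summed seminal vesicle signals were lower on every castrated genistein array than on castrated vehicle arrays, most of all on arrays 1 and 3, as given above. Their part in the values was not tested. In the lists around the cycle none passed either, the lowest adjusted p being for Sdhd, the membrane anchor of succinate dehydrogenase (0.94, adjusted p = 0.240), Pdk4 (1.21, adjusted p = 0.356), Acacb (0.70, adjusted p = 0.455), Slc1a1 (-0.76, adjusted p = 0.240) and the chaperone Hspd1 (0.47, adjusted p = 0.328).

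In intact males none of the 9 passed with genistein either. Limma called 1 of 15406 genes (0.00649%), the water channel Aqp8, and 7.41% had an unadjusted p under 0.05, among them 0 of the 9. The count over all genes was 19 without intact genistein array 1, and it was 0 in 10 of the 16 alternatives. Idh1 came nearest at 0.48 (SE 0.23, adjusted p = 0.678), with intact genistein arrays at 10.62, 11.18 and 11.82 against 10.63, 10.84 and 10.72 under vehicle. A single intact genistein array lay at the vehicle level and the other two above it. The remaining changes ran from -0.17 for Slc25a1 and -0.07 for Mdh2 to 0.34 for Aco1, with 0.29 for Cs, 0.25 for Ogdh, 0.23 for Idh3a, 0.17 for Idh2 and 0.16 for Fh1. The median of the 9 was 0.23, against 0.0033 over all genes; it was 0.065 without intact vehicle array 1 and 0.44 without intact vehicle array 2. Groups overlapped for all 9, against 10.7% of all genes that did not overlap. Pdk4 (1.16, adjusted p = 0.639), Slc13a2, a plasma membrane citrate carrier (0.75, adjusted p = 0.678), Dld (0.34), Glud1 (0.22) and Polrmt (-0.22) had the lowest adjusted p of their lists, and none passed.

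Whether the genistein response differed between castrated and intact males was tested as an interaction, and none of the 9 passed. Limma called 0 of 15406 genes (0%), with 7.28% at an unadjusted p under 0.05 and none of the 9, each by its brightest probe, among them. Without castrated genistein array 2 the count over all genes was 79, and without intact genistein array 1 it was 3, with 0 of the 9 in either. The difference of responses, castrated minus intact, was 0.84 (SE 0.44, adjusted p = 0.711) for Slc25a1, 0.52 (SE 0.27, adjusted p = 0.711) for Mdh2, 0.36 (SE 0.18, adjusted p = 0.699) for Idh2 and -0.55 (SE 0.32, adjusted p = 0.751) for Idh1. The other 5 ran from 0.05 for Cs to 0.40 for Idh3a, and the median of the 9 was 0.34, against -0.0054 over all genes. That median was 0.15 without intact vehicle array 2, 0.21 without castrated vehicle array 1, 0.22 without castrated genistein array 1 and 0.18 under median scaling, where the median of all genes was -0.16. The same quantity is the difference between the castration changes under genistein and under vehicle, so the differing calls in those comparisons were not shown to differ. In the surrounding lists the nearest were Sdhd (0.96, adjusted p = 0.530), Pcx (0.98, adjusted p = 0.623), Acacb (0.67), Slc1a1 (-1.07, adjusted p = 0.500) and Tomm40 (0.69).

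With estradiol in intact males, none of the 9 passed. Limma called 0 of 15088 genes (0%), with 6.92% at an unadjusted p under 0.05, among them Mdh2 and Cs. Mdh2 read 10.72, 11.11, 11.26, 11.34 and 11.36 on the 5 vehicle arrays and 10.44, 10.57, 10.94 and 10.94 on the 4 estradiol arrays. Vehicle array 1 was low and lay among the estradiol arrays, and the log2 change was -0.43 (SE 0.17, adjusted p = 0.678). Cs read 12.22, 12.24, 11.94, 12.20 and 12.29 under vehicle and 11.74, 11.72, 11.99 and 12.05 under estradiol, with vehicle array 3 below the rest of its group (log2 change -0.30, SE 0.12, adjusted p = 0.693). Slc25a1 had the widest spread, from 10.20 on vehicle array 1 to 12.44 on vehicle array 4, and a change of 0.16 (SE 0.40). Changes of the others were -0.38 for Idh2, -0.24 for Idh3a, -0.21 for Fh1, -0.17 for Aco1, -0.05 for Ogdh and 0.18 for Idh1. Group levels under vehicle (n = 5) and estradiol (n = 4) were 11.63 ± 0.51 and 11.81 ± 0.25 (SD) for Idh1, 9.96 ± 0.34 and 9.58 ± 0.23 for Idh2, 10.40 ± 0.38 and 10.17 ± 0.34 for Idh3a, 7.89 ± 0.41 and 7.72 ± 0.32 for Aco1, 11.70 ± 0.30 and 11.65 ± 0.15 for Ogdh and 12.30 ± 0.15 and 12.09 ± 0.16 for Fh1. The median change of the 9 was -0.21, against 0.0091 over all genes. It was -0.033 within chip 3 or with chip as a fixed block, -0.13 without estradiol array 1 and -0.043 under median scaling, where the median of all genes was 0.16. Groups overlapped for all 9, against 2.82% of genes that did not overlap.

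The estradiol arrays and vehicle arrays 1 and 2 share chip 3, while vehicle arrays 3 and 4 lie on chip 4 and array 5 on chip 5. Within chip 3 alone the changes were -0.19 for Mdh2 and -0.016 for Idh2, and 0 of the 9 passed. Skeletal muscle markers had low means on vehicle array 1 (12.93) and estradiol array 1 (12.73) against 13.81 to 14.14 on the others. Idh3a was the lowest of its group on both of these arrays, at 9.75 and 9.72, but the genes differed. Mdh2 and Slc25a1 were also lowest of their group on vehicle array 1, as given above. Idh1 was highest of its group on vehicle array 1 (12.21) and Aco1 on estradiol array 1 (8.02). The log2 change of Ucp1 was -0.65 (SE 0.21) at an adjusted p of 0.656. The part of these signals was not tested. The list genes nearest to the threshold were Dld, the shared dehydrogenase subunit (-0.72), Pdhb (-0.41), Hspd1 (-0.32), Slc13a2 (0.92) and Glud1 (-0.14), each with an adjusted p of at least 0.656.

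**Figure D5:**
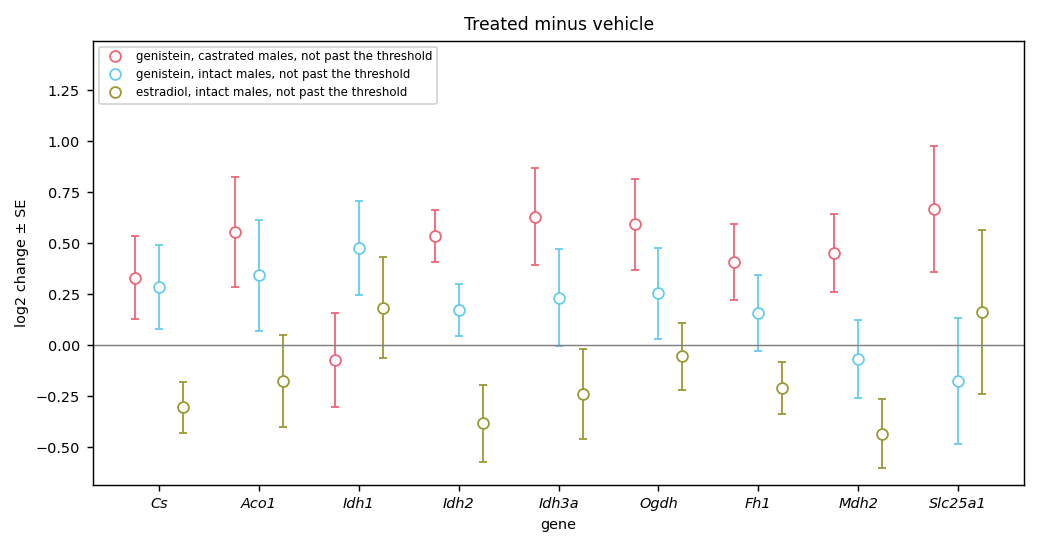
Log2 change, treated minus vehicle, of each of the 9 genes (vertical axis, ± SE from the limma fit) for genistein in castrated males, genistein in intact males and estradiol in intact males; open points did not pass an adjusted p of 0.05. All points are open; the genistein changes in castrated males run from -0.07 to 0.67 and the estradiol changes from -0.43 to 0.18.

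Among themselves, the 9 genes varied together across arrays in the genistein experiment. Pearson's r of the 36 pairs over 12 arrays ran from 0.33 (Idh1 with Mdh2) to 0.95 (Idh2 with Idh3a), with a median of 0.69. Over the 9 arrays of the estradiol experiment r ran from -0.72 (Idh1 with Ogdh) to 0.92 (Idh2 with Mdh2), with a median of 0.42 and 25 of 36 above 0. These values describe arrays that share normalization, chips and the 4 or 2 groups of their experiment.

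The genes whose pattern over the 12 arrays was most like Cs were Dlst (r = 0.975), Acadvl, an acyl-CoA dehydrogenase of mitochondrial fatty acid oxidation (r = 0.963), and Igsf21 (r = 0.957). Over the 9 estradiol arrays their r with Cs was 0.717, 0.756 and 0.390. Idh1 had the largest castration change under vehicle among the 9 genes. Nearest to it were Apbb1 (r = 0.964), the transcription factor Zeb1 (r = 0.961) and the interferon-induced GTPase Irgm2 (r = 0.960). Their r with Idh1 in the estradiol experiment was -0.048, 0.808 and 0.130.

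Of the 4 genes with a second probe, Ogdh had one that was detected on 0 of 12 and 0 of 9 arrays. The second probe of Idh3a, annotated to another transcript accession, was much dimmer and gave log2 changes of 0.10 for castration under vehicle, 1.19 (adjusted p = 0.246) for genistein in castrated males, 0.57 in intact males, 0.62 for the interaction and -0.93 (adjusted p = 0.633) for estradiol, against 0.36, 0.63, 0.23, 0.40 and -0.24 for the brighter probe. For Fh1 the second probe gave -0.08, 0.64, 0.06, 0.58 and -0.57 in that order, against -0.08, 0.41, 0.16, 0.25 and -0.21. The second Slc25a1 probe gave 0.12, 0.67, -0.38, 1.05 and -0.05, against 0.53, 0.67, -0.17, 0.84 and 0.16. The probes of Slc25a1 thus differed in sign under estradiol, where neither passed. Outside the castration comparisons, some second probes had an unadjusted limma p under 0.05 where the brighter probe did not. These were Slc25a1 for genistein in castrated males (0.0301), Slc25a1 (0.0178) and Fh1 (0.0325) for the interaction and Idh3a for estradiol (0.00840). Their adjusted p was 0.482, 0.625, 0.637 and 0.633.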

How the data were processed

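For every array the authors deposited an intensity per probe (45259 probes, not normalized between arrays) and, per the file headers, its detection p-value. Their further table of processed intensity values, of unstated method, served as an alternative. The submitters' processing notes name BeadStudio. The unprocessed intensities were background-corrected (normexp, offset 16), quantile-normalized and put on the log2 scale within each experiment with neqc in limma 3.58.1 (R 4.3.3); the script was tested on simulated data. Probes detected (p under 0.05) on at least 3 arrays were kept, and the brightest stood for its gene, leaving 15406 and 15088 genes. Limma (lmFit and eBayes; two-sided p, adjusted by Benjamini-Hochberg across all genes tested) fitted 4 group means to 12 arrays and 2 to 9, with 8 and 7 residual degrees of freedom. All 9 genes, up to 5 called genes of each list, otherwise the one with the lowest p, and the 3 genes most like Cs and Idh1 are named. The members and lists were chosen with earlier results of these data known. The number of arrays limits the precision. Correlations are descriptions without p-values.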

Additional observations from a re-analysis of the deposited data

Results flagged for a closer look

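Of 18 gene and group combinations of 4 or 5 arrays examined, 1 held an array set apart from the others of its group. Cs on intact vehicle array 3 of the estradiol experiment read 11.94, below the next array at 12.20, a gap of 0.75 of the range of the group (Dixon's test). Chance marks about 5% of groups, close to 1 of 18.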

How the results depend on the processing

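The count of called genes was 1 for castration under vehicle in all 16 alternatives, and 0 for the genistein, interaction and estradiol comparisons in every alternative run. Idh1 after castration under vehicle stayed between 0.91 and 1.02, with adjusted p from 0.00241 to 0.0445. For castration under genistein the count was 3; it was 1 under median scaling, 0 without castrated genistein arrays 1 and 3, 1 to 3 when each array was left out, and 4 with a normexp offset of 50 (Mdh2 added, adjusted p = 0.0484) or with only the arrays compared (Ogdh added, adjusted p = 0.0450). Idh3a was lost in 11 of 16 alternatives, Idh2 in 4 and Slc25a1 in 1, that without arrays 1 and 3; the cause was not tested. The labels do not say that replicate numbers pair the samples. For arrays of the same number, r of deviations was -0.28 to 0.16 over 18 pairs and 0.03 to 0.34 over 4. So few pairs cannot settle whether the samples were paired. The replicate block gave 2 calls for castration under genistein and left the other counts unchanged. Median scaling moved the median of all genes to 0.14 for castration under vehicle, 0.11 for genistein in intact males, -0.16 for the interaction and 0.16 for estradiol, so changes of those sizes carry no direction. It gave 2282 higher and 1052 lower genes after castration under vehicle, against 1713 and 1546, and 1238 and 1681 under genistein, against 1722 and 1679. Signs turned under median scaling for Mdh2 with genistein in intact males (0.030), for Cs (-0.039) and Aco1 (-0.022) in the interaction, and for Aco1 (0.012) and Ogdh (0.11) with estradiol. Without castrated genistein arrays 1 and 3 they turned for Idh1 with genistein in castrated males (0.041) and for Cs in the interaction (-0.041). Ogdh with estradiol was 0.0040 with the replicate block and 0.023 within chip 3 or with chip as a fixed block. Leaving out single arrays gave ranges that cross 0 for castration under vehicle (Aco1 -0.087 to 0.44, Fh1 -0.20 to 0.036, Mdh2 -0.19 to 0.18), genistein in intact males (Idh3a -0.089 to 0.48, Fh1 -0.032 to 0.30, Mdh2 -0.27 to 0.11, Slc25a1 -0.48 to 0.051), the interaction (Cs -0.16 to 0.20, Aco1 -0.10 to 0.43) and estradiol (Ogdh -0.16 to 0.017, Slc25a1 -0.18 to 0.38). Over all genes, castration under genistein called 839 without castrated genistein arrays 1 and 3, 2260 without array 1 alone and 2216 without intact genistein array 2, against 3401; castration under vehicle called 2037 without castrated vehicle array 1, against 3259.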
